A study of Mus musculus with 12 samples.

Results

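The genes described here encode the main enzyme families that process drugs, food chemicals and other foreign compounds. They are the cytochrome P450 families CYP1, CYP2 and CYP3, the UDP-glucuronosyltransferases of family UGT2, the cytosolic sulfotransferases (SULT), the glutathione S-transferases (GST) and the carboxylesterases (CES). Members were taken by gene symbol alone, from array features listed with exactly 1 symbol, with the brightest feature kept for each gene. This gave 111 members among 19938 measured genes: 3 CYP1, 44 CYP2 (of which RefSeq lists Cyp2d13 and Cyp2d37-ps as transcribed pseudogenes), 6 CYP3, 8 UGT2, 16 SULT, 18 GST and 16 CES genes. A further 15 features of these families list several symbols and stayed out, so that no gene of family UGT1A has a value of its own here. Most members lie close to another member: of 109 placed in the RefSeq gene order, 95 lie in 17 clusters, in which neighbouring members, of the same or another family, are at most 10 places apart.

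The tissue was duodenum, the first segment of the small intestine, from mice of strain 129, untreated and of mixed sex. The 4 groups were wild type at postnatal day 15, Onecut-2 knockout at day 15, wild type at day 30 and Onecut-2 knockout at day 30, with 3 arrays in each. Every array carried RNA pooled from 5 to 8 animals of 1 group, so the replicates are separate pools and their spread is smaller than that between single animals. In the knockout the gene Onecut2, a cut-homeodomain transcription factor gene, is ablated, and the labels give neither the deleted part nor a tissue restriction.

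These enzymes work in sequence. P450 enzymes of the endoplasmic reticulum insert oxygen into their substrates and carboxylesterases split esters, which exposes a reactive group. Transferases then attach glucuronic acid, sulfate or glutathione to it, and the conjugate is carried out of the cell. In the small intestine most of this takes place in absorptive enterocytes, which meet ingested compounds first. The ages lie before and after weaning, when milk gives way to solid food.

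All values are log2 expression after RMA, a method that corrects background, equalises the arrays' distributions and combines the probes of a feature. A difference of 1 is a doubling. Differences were tested with limma over all 19938 genes and called at a Benjamini-Hochberg adjusted p below 0.05. Errors are the SD over 3 arrays for a mean and the moderated standard error (SE) for a difference. Levels are compared between groups only, never between genes, because probes differ in brightness. Of the members, 53 stayed below 7.22 in every group mean, the median over all features, and are called dim below. Differences near background are compressed.

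The labels held in the targeted gene: Onecut2 was 9.55, 9.69 and 9.68 in wild type and 8.09, 8.13 and 8.20 in knockout at day 15, and 9.63, 9.50 and 9.62 against 8.24, 8.25 and 8.18 at day 30. Whether its probes lie in the deleted part was not analysed here. Enterocyte markers averaged 12.91 to 13.16 per array. With age, 4 of these 9 were called higher and 5 lower in wild type (differences from -1.29 to 0.82). In knockout 4 were called higher and 4 lower (-0.93 to 0.86). Pancreatic acinar genes were also present, at 11.43 to 12.39. The 10 measured hepatocyte markers averaged 6.64 to 6.86 per array, with Alb at 5.37 to 5.92 and Apoh at 5.34 to 5.62, while Cps1, which enterocytes also express, had group means of 12.95 to 13.24. With age, Tat rose and Ttr and Cps1 fell in each genotype, and at day 30 Tat was higher and Ttr lower in knockout (0.72 and -0.44). Between the ages, smooth muscle markers fell (12 of 12 in each genotype, per-array means of 10.74 to 10.84 in wild type at day 15 against 10.02 to 10.19 at day 30), fibroblast markers fell (7 of 7 in each genotype) and T cell markers rose (8 of 9 in each genotype). The epithelial markers averaged 11.93 to 12.02 at day 15 and 12.08 to 12.11 at day 30. In a bulk sample, fewer cells of a type and less RNA per cell cannot be told apart, and muscle and age cannot be told apart in these groups. The female transcript Xist varied between pools, from 9.26 to 11.37, and averaged lower in wild type at day 30 (9.26, 10.67 and 9.53) than at day 15 (11.37, 10.25 and 10.93).

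Between day 15 and day 30 in wild type mice, 54 of 111 members (48.6%) changed, 39 upward and 15 downward. Over all genes 29.3% changed, with 12.3% higher and 17.0% lower. In the knockout 45 members (40.5%) changed, 34 upward and 11 downward, against 31.0% of all genes (13.8% higher, 17.2% lower). The median member difference was 0.13 in wild type and 0.10 in knockout, beside 0.022 and 0.026 over all genes. The same direction was called in both genotypes for 28 rises and 10 falls, and no member was called in opposite directions. A further 16 members passed in wild type alone and 7 in knockout alone, which does not show that their changes differed. Among all 111 members that difference passed for 2: Ces2a, called in wild type alone, and Sult6b2, called in both genotypes. Among the 58 members that were not dim, 46 were called in wild type, compared with 8 of the 53 dim members. The same split was not made over all genes, so neither count can be set against the 29.3%. Every wild type call but that of Gstm6 was lost when the smooth muscle mean of each array entered the model, a term whose ranges at the 2 ages do not overlap. With Xist in the model, a setting chosen after seeing the data, 38 members were called in wild type, 37 of them among the 54. Over all genes 3829 were called in that setting and 5849 without it.

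**Figure D1:**
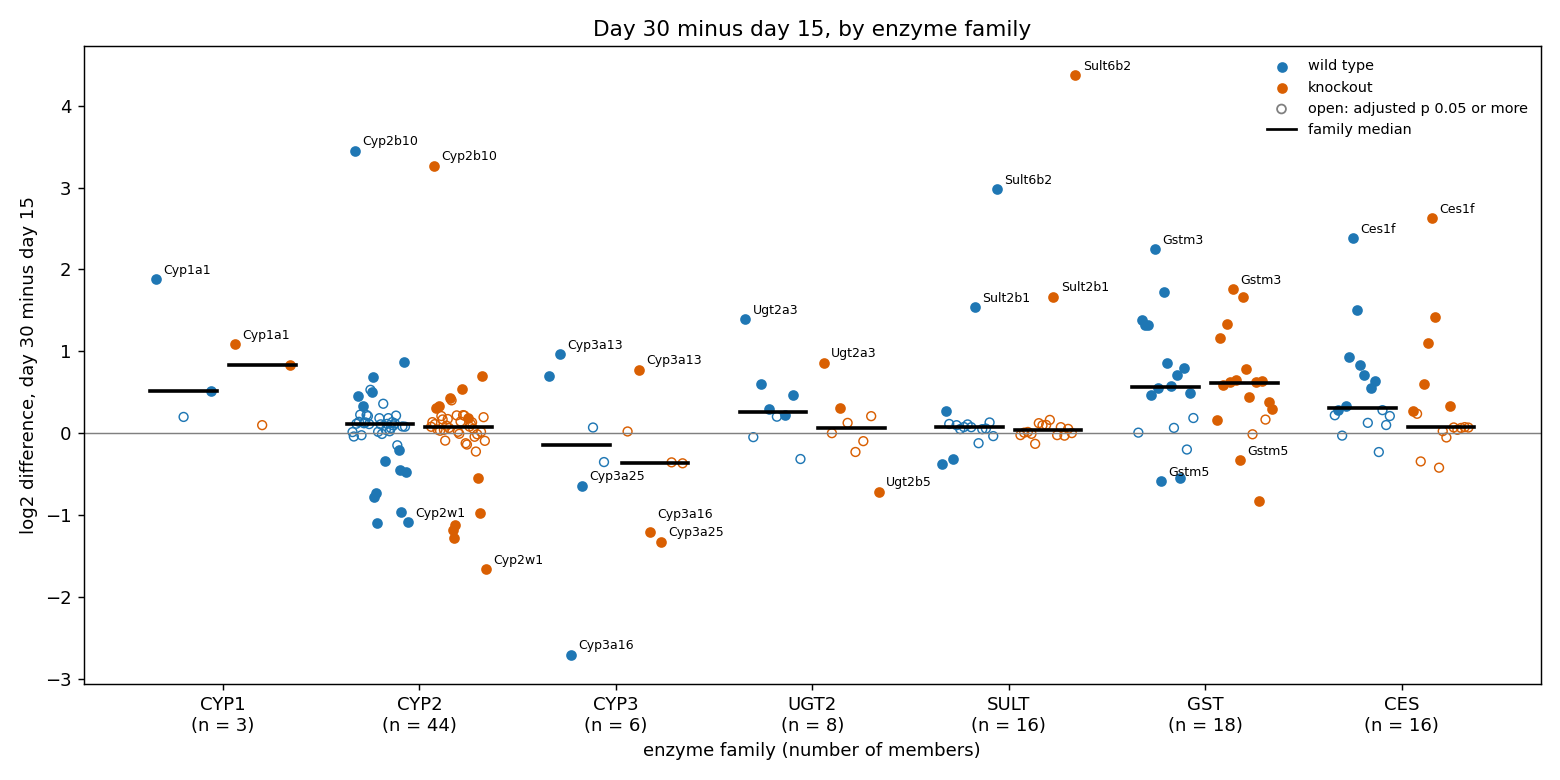
Change from day 15 to day 30 (log2 difference, vertical axis) of each of the 111 members, grouped by family and split into wild type (blue) and knockout (orange), with black bars at family medians and open circles where the limma adjusted p was 0.05 or more. The glutathione S-transferases lie mostly above 0 (medians 0.56 and 0.61), and single members of other families, such as Cyp2b10 and Sult6b2, stand far above theirs.

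Among the oxidising enzymes, family CYP1 had 3 members. Cyp1a1, the P450 that oxidises polycyclic aromatic hydrocarbons and is the classic target of the aryl hydrocarbon receptor, was at 5.84, 5.82 and 6.05 in wild type at day 15 and at 8.17, 6.60 and 8.58 at day 30. Its knockout values were 6.07, 6.10 and 5.84 and then 6.83, 7.06 and 7.39. The groups of the 2 ages did not overlap in either genotype, but the wild type pools at day 30 were far apart, with replicate 2 near the day 15 level. The rise was 1.88 in wild type (SE 0.36, limma adjusted p = 0.0015) and 1.09 in knockout (adjusted p = 0.036). The wild type call held whichever array was left out but was lost with Xist in the model. The knockout call was lost without day 15 replicate 1, 2 or 3 or day 30 replicate 2 or 3 (adjusted p 0.068 to 0.12). Cyp1b1, a relative found mainly in stromal cells, rose by 0.52 and 0.83 while the fibroblast markers fell. Cyp1a2, the liver-type member, was dim and was not called.

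Family CYP2 split into a few large movements and a majority that did not pass. Of 44 members, 6 rose and 9 fell in wild type, and 7 rose and 6 fell in knockout, with medians of 0.11 and 0.08. The called shares, 34.1% and 29.5%, were near those of all genes (29.3% and 31.0%). Cyp2b10, the P450 through which responses to the constitutive androstane receptor are usually read, was at 7.21, 6.57 and 6.44 at day 15 and at 10.06, 10.05 and 10.47 at day 30 in wild type. In the knockout it was at 6.46, 6.35 and 6.60 and then at 9.81, 10.04 and 9.36. All 6 arrays of day 30 lay more than 2 log2 units above all 6 of day 15. The rise was 10.9-fold in wild type (log2 difference 3.45, SE 0.20, limma adjusted p = 8.2e-08) and 9.61-fold in knockout (adjusted p = 1.2e-07). Its neighbours in the Cyp2a, Cyp2b, Cyp2f, Cyp2g and Cyp2t cluster of chromosome 7 were dim, and none of them differed by more than 0.45 in size between the ages. Cyp2s1, an epithelial P450 at the edge of that cluster, rose by 0.87 and 0.70.

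The Cyp2c cluster of chromosome 19 held rises and falls. In the RefSeq order of its 12 placed members, Cyp2c55, Cyp2c65 and Cyp2c66 stand first, Cyp2c67 and Cyp2c68 further in, and Cyp2c70 last. Cyp2c65, one of the Cyp2c enzymes of the gut that oxidise arachidonic acid, rose in wild type (0.50) and in knockout (0.43). Its calls were lost in wild type without day 15 replicate 3 or day 30 replicate 3 (adjusted p 0.058 to 0.081), and in knockout without day 15 replicate 2 or 3 or day 30 replicate 2 or 3 (adjusted p 0.1 to 0.13). Cyp2c66 rose by 0.69 in wild type and differed by 0.40 in knockout, which was not called (limma adjusted p = 0.090).

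The members further along fell. Cyp2c68 was at 9.83, 10.09 and 10.22 at day 15 and at 9.26, 9.34 and 9.35 at day 30 in wild type, and at 9.88, 9.95 and 9.84 and then 8.38, 9.18 and 8.27 in knockout. Its groups did not overlap between the ages, and the fall was 0.73 in wild type and 1.28 in knockout. Cyp2c67 was at 7.19, 7.40 and 7.53 and then 6.56, 6.65 and 6.57 in wild type, and at 7.02, 7.12 and 7.22 and then 5.97, 6.32 and 5.52 in knockout. It fell by 0.78 and 1.18 without overlap between the ages. Cyp2c70, which in mouse liver makes the muricholic bile acids, was at 7.04, 7.21 and 7.13 and then at 5.94, 5.98 and 6.15 in wild type. It fell by 1.10 there (limma adjusted p = 3.8e-06) and by 1.12 in knockout, from 7.17, 7.15 and 7.47 to 5.97, 6.20 and 6.27. The 6 members between these groups and beside them, Cyp2c29, Cyp2c37, Cyp2c38, Cyp2c39, Cyp2c50 and Cyp2c54, were dim, and Cyp2c29 alone passed (0.33 in wild type). The age changes of the genotypes did not differ by the limma test for any of 13 Cyp2c members, adjusted or at an unadjusted p below 0.05 (0 of 13).

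The other CYP2 genes that fell belong to Cyp2j, Cyp2w, Cyp2u and Cyp2d. Cyp2w1, a P450 known from the fetal colon, was at 8.25, 8.23 and 8.24 in wild type at day 15, and at 7.20, 7.20 and 7.06 at day 30. In the knockout it went from 8.67, 8.57 and 8.58 to 7.13, 6.71 and 7.00. The day 15 knockout arrays were the highest of the 12 and the falls were 1.09 and 1.66 (limma adjusted p = 1.2e-06 and 3.1e-08). Cyp2j9 fell from 8.06, 8.12 and 8.03 to 7.14, 6.99 and 7.19 in wild type, a difference of -0.96, and by 0.98 in knockout. Its neighbour Cyp2j6, which like Cyp2j9 belongs to a subfamily of fatty acid epoxygenases, fell by 0.44 and 0.55. Cyp2u1, a fatty acid hydroxylase, fell by 0.47 in wild type and had a difference of -0.09 in knockout (limma adjusted p = 0.31). Cyp2d26 fell by 0.35 in wild type (limma adjusted p = 0.040), a call lost whichever of the 6 arrays was left out (adjusted p 0.056 to 0.12), and differed by 0.22 in knockout (adjusted p = 0.18). Cyp2d22 rose by 0.54 in knockout and differed by 0.36 in wild type. The remaining CYP2 calls, of the dim Cyp2b19 in both genotypes, Cyp2j5 in wild type and Cyp2b9 and Cyp2d9 in knockout, were at most 0.45 in size. The knockout call of Cyp2b19 was lost without day 15 replicate 2 or 3 or day 30 replicate 3 (adjusted p 0.093 to 0.13), that of Cyp2b9 without day 15 replicate 1 or day 30 replicate 2 (adjusted p 0.056 to 0.058) and that of Cyp2d9 without day 15 replicate 3 or day 30 replicate 1 (adjusted p 0.06 to 0.093), and the wild type call of Cyp2j5 without day 15 replicate 3 (adjusted p = 0.061).

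Family CYP3, whose enzymes have the broadest drug specificity, was split as well: in wild type 2 of 6 members rose and 2 fell, and in knockout 1 rose and 2 fell. The called shares were 66.7% and 50%, beside 29.3% and 31.0% of all genes. Cyp3a16, known as a P450 of the fetal and newborn liver, was at 6.46, 7.57 and 6.77 in wild type at day 15 and at 4.37, 3.97 and 4.33 at day 30. In the knockout it was at 4.97, 5.64 and 5.78 and then at 4.48, 4.12 and 4.15. The highest values were the 3 wild type arrays of day 15, and both groups of day 30 lay together at the bottom. The fall was 6.53-fold in wild type (-2.71, SE 0.26, limma adjusted p = 4.9e-06) and 2.32-fold in knockout (-1.21, adjusted p = 0.0029). All 4 of its group means were below 7.22.

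The next member in the RefSeq order of this cluster, Cyp3a44, did not pass in any comparison (day 30 minus day 15 0.07 in wild type and -0.36 in knockout). Genes that are not members are left out of that order and may lie between them. The 250 bases before the start of each are shown because these 2 members have nearly the same upstream sequence in RefSeq and different values here. The RefSeq build is GRCm38.p6, a C57BL/6J reference, whereas the mice were of strain 129. Both sequences lie on the minus strand of chromosome 5, at chr5:145469724-145469973 and chr5:145805875-145806124. Of 254 aligned columns 236 are identical (92.9%), and capitals mark the 14 bases of each that have no identical partner in the other.
Cyp3a16: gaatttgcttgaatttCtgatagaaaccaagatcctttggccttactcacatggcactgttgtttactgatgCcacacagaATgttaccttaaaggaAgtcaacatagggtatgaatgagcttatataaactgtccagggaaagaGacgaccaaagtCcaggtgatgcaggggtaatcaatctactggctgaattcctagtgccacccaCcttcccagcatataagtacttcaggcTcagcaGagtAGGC
Cyp3a44: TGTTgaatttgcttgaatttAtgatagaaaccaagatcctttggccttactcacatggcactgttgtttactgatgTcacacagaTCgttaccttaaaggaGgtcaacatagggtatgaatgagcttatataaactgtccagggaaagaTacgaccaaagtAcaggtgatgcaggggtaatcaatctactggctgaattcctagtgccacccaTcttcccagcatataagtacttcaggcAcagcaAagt
Whether probes of the 2 features also match the other gene was not tested.

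Cyp3a25, further along the same cluster, was bright and fell. It was at 12.27, 12.34 and 12.03 and then 11.36, 11.58 and 11.78 in wild type, and at 12.25, 12.28 and 12.19 and then 10.64, 11.31 and 10.79 in knockout. The ages did not overlap in either genotype, and the falls were 0.64 and 1.32. Cyp3a11, the best studied drug-oxidising CYP3 of the mouse, lies between Cyp3a44 and Cyp3a25 and went the other way in wild type, by 0.69 (limma adjusted p = 0.015). That call was lost without day 15 replicate 3 or day 30 replicate 2 (adjusted p 0.055 to 0.076), and the knockout difference was 0.02. Cyp3a13, which stands apart from the cluster on chromosome 5, rose by 0.97 and 0.77.

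Carboxylesterase calls were all upward with age. In wild type 9 of 16 members were higher at day 30 and none was lower (56.2% called, beside 29.3% of all genes). In knockout 6 were higher and none was lower (37.5%, beside 31.0%), and the medians were 0.30 and 0.07. At an unadjusted limma p below 0.05, 0 were lower in wild type and 2 in knockout. They lie in a pair of clusters on chromosome 8. In the first, 5 of 7 Ces1 genes rose in each genotype. Ces1f was at 8.39, 8.26 and 8.06 at day 15 and at 10.52, 10.69 and 10.65 at day 30 in wild type, with knockout values of 8.34, 7.65 and 7.93 and 10.54, 10.60 and 10.66. All day 30 arrays lay together more than 2 log2 units above all day 15 arrays, a rise of 5.21-fold in wild type (SE of the log2 difference 0.14, limma adjusted p = 7.7e-08) and of 6.18-fold in knockout (adjusted p = 3.0e-08). Ces1g, a lipid-handling esterase of liver and gut, rose by 1.51 and 1.42, and Ces1e by 0.94 and 1.10. Ces1d, dim, rose by 0.33 and 0.60, with the wild type call lost without day 15 replicate 1 or day 30 replicate 1 or 2 (adjusted p 0.054 to 0.075). The remaining Ces1 calls, of the dim Ces1b in wild type and Ces1a in knockout, were at most 0.28 in size, and were lost without day 15 replicate 1, 2 or 3 or day 30 replicate 2 or 3 (adjusted p 0.068 to 0.13) and without day 15 replicate 1 or 3 or day 30 replicate 1 or 3 (adjusted p 0.074 to 0.11) respectively.

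In the second cluster 4 of 5 Ces2 genes rose in wild type and 1 in knockout. Enzymes of this class cleave esters with a large alcohol group, among them many prodrugs. Ces2a rose by 0.84 in wild type (limma adjusted p = 0.0021), Ces2g by 0.64 (adjusted p = 0.0015) and Ces2b by 0.72 (adjusted p = 0.024). Their knockout differences were -0.42, 0.07 and 0.03, none of them called. The wild type call of Ces2b was lost without day 15 replicate 2 or 3 or day 30 replicate 2 or 3 (adjusted p 0.06 to 0.086). Ces2f, dim, rose by 0.55 in wild type and 0.33 in knockout, the second call being lost without day 15 replicate 2 or 3 or day 30 replicate 3 (adjusted p 0.059 to 0.093). Ces2e had group means from 12.4 to 12.6 and no call, and neither did Ces3a, Ces3b, Ces4a and Ces5a.

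Among the conjugating enzymes, UGT2 genes attach glucuronic acid to steroids, bile acids and drugs. Of 8 members 5 rose and none fell in wild type (1 was lower at an unadjusted limma p below 0.05), and 2 rose and 1 fell in knockout (medians 0.26 and 0.06). The called shares were 62.5% and 37.5%, beside 29.3% and 31.0% of all genes. Ugt2a3 rose by 1.39 in wild type (limma adjusted p = 0.00071) and by 0.86 in knockout (adjusted p = 0.016), and the bright Ugt2b34 by 0.60 and 0.31. Both knockout calls depended on single arrays: that of Ugt2a3 was lost without day 15 replicate 2 or 3 or day 30 replicate 2 (adjusted p 0.053 to 0.074), and that of Ugt2b34 without day 15 replicate 2 or 3 or day 30 replicate 2 (adjusted p 0.096 to 0.11). Ugt2b35, Ugt2b37 and Ugt2b38 rose by 0.29, 0.22 and 0.47 in wild type and did not pass in knockout. The call of Ugt2b37, which was dim, was lost without day 15 replicate 2 or 3 or day 30 replicate 1 or 3 (adjusted p 0.053 to 0.11), and that of Ugt2b38 without day 15 replicate 3 or day 30 replicate 1 or 3 (adjusted p 0.1 to 0.13). Ugt2b5 fell by 0.71 in knockout.

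The sulfotransferases held 1 of the largest changes and a majority of dim genes. Of 16 members 3 rose and 2 fell in wild type (31.2% called, near the 29.3% of all genes). In knockout 2 rose and none fell (12.5% called, below the 31.0% of all genes, with 0 lower at an unadjusted limma p below 0.05). At day 15, 2 were lower in knockout (12.5% called, beside 3.83% of all genes). Sult6b2 was at 10.31, 10.21 and 10.10 at day 15 and at 13.10, 13.32 and 13.15 at day 30 in wild type. In the knockout it was at 7.91, 8.67 and 7.85 and then at 12.65, 12.48 and 12.41. The 4 groups did not overlap with each other, and the knockout was the lower genotype at each age. The rise was 7.91-fold in wild type (log2 difference 2.98, SE 0.17, limma adjusted p = 6.4e-08) and 20.7-fold in knockout (4.37, adjusted p = 2.6e-09).

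Sult2b1, which sulfates cholesterol and related sterols, was at 9.19, 9.25 and 8.95 and then 10.65, 10.74 and 10.63 in wild type, and at 9.40, 9.13 and 9.31 and then 10.98, 10.92 and 10.93 in knockout. It rose by 1.54 and 1.67 with no overlap between the ages. Sult1b1, an enteric enzyme for phenols and thyroid hormone, rose by 0.27 in wild type alone (knockout 0.01). Sult1a1, the broad phenol sulfotransferase, fell by 0.38 in wild type and had a difference of -0.02 in knockout. Sult1c2 fell by 0.32 in wild type, a call lost without day 15 replicate 1 or 3 or day 30 replicate 1 or 3 (adjusted p 0.069 to 0.14). Sult1d1, bright at both ages, did not pass (0.10 and -0.13).

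The glutathione S-transferases had the highest share of members called among the families, 77.8% in wild type and 88.9% in knockout. Over all genes the shares were 29.3% and 31.0%. Of 18 members 12 rose and 2 fell in wild type, and 14 rose and 2 fell in knockout, with medians of 0.56 and 0.61. The mu class stands in 1 cluster on chromosome 3, where 6 of 7 genes rose and Gstm5 fell in both genotypes. Gstm3 was at 10.04, 9.68 and 9.28 and then at 11.29, 12.03 and 12.41 in wild type, and at 10.10, 9.54 and 9.27 and then 10.87, 11.85 and 11.47 in knockout. The ages did not overlap although the pools of each group spread by up to about 1 log2 unit, and the rise was 2.24 (SE 0.31, limma adjusted p = 0.00011) and 1.76 (adjusted p = 0.00081). A second feature of Gstm3 gave 2.51 and 1.79. Gstm6 was tighter, at 7.02, 7.12 and 6.96 and then 8.76, 8.84 and 8.68 in wild type and at 6.63, 6.44 and 6.80 and then 8.28, 8.37 and 8.20 in knockout. It rose by 1.73 and 1.66, with the 4 groups apart from each other. The other rises of the cluster were those of Gstm1 (1.33 and 1.34), Gstm7 (0.86 and 0.79), Gstm4 (0.55 and 0.66) and Gstm2 (0.46 and 0.63). Gstm5, at one end of the cluster, fell by 0.59 and 0.33.

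The other classes held 6 further rises in both genotypes and 1 fall. Gsta4, which conjugates aldehydes from lipid peroxidation, rose by 1.39 and 1.17. Gstk1, of mitochondria and peroxisomes, rose by 1.32 in wild type and 0.59 in knockout, and the difference between the genotypes in this respect did not pass (-0.73, SE 0.15, limma adjusted p = 0.065). Gstt1 rose by 0.80 and 0.64, Gstt3 by 0.49 and 0.39, Gsto1 by 0.57 and 0.45 and Gstp1 by 0.71 and 0.63. The neighbours Gstp1 and Gstp3 of chromosome 19 moved in opposite directions. Gstp3 was at 8.23, 8.22 and 8.27 and then 7.68, 7.66 and 7.74 in wild type, and at 8.59, 8.49 and 8.54 and then 7.77, 7.72 and 7.67 in knockout, falls of 0.55 and 0.82 without overlap. Gsta3 and the dim Gstt4 passed in knockout alone, by 0.17 and 0.29, and those calls were lost without day 15 replicate 2 or 3 or day 30 replicate 1 or 3 (adjusted p 0.059 to 0.088) and without day 15 replicate 2 or 3 or day 30 replicate 2 or 3 (adjusted p 0.087 to 0.14) respectively.

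**Figure D2:**
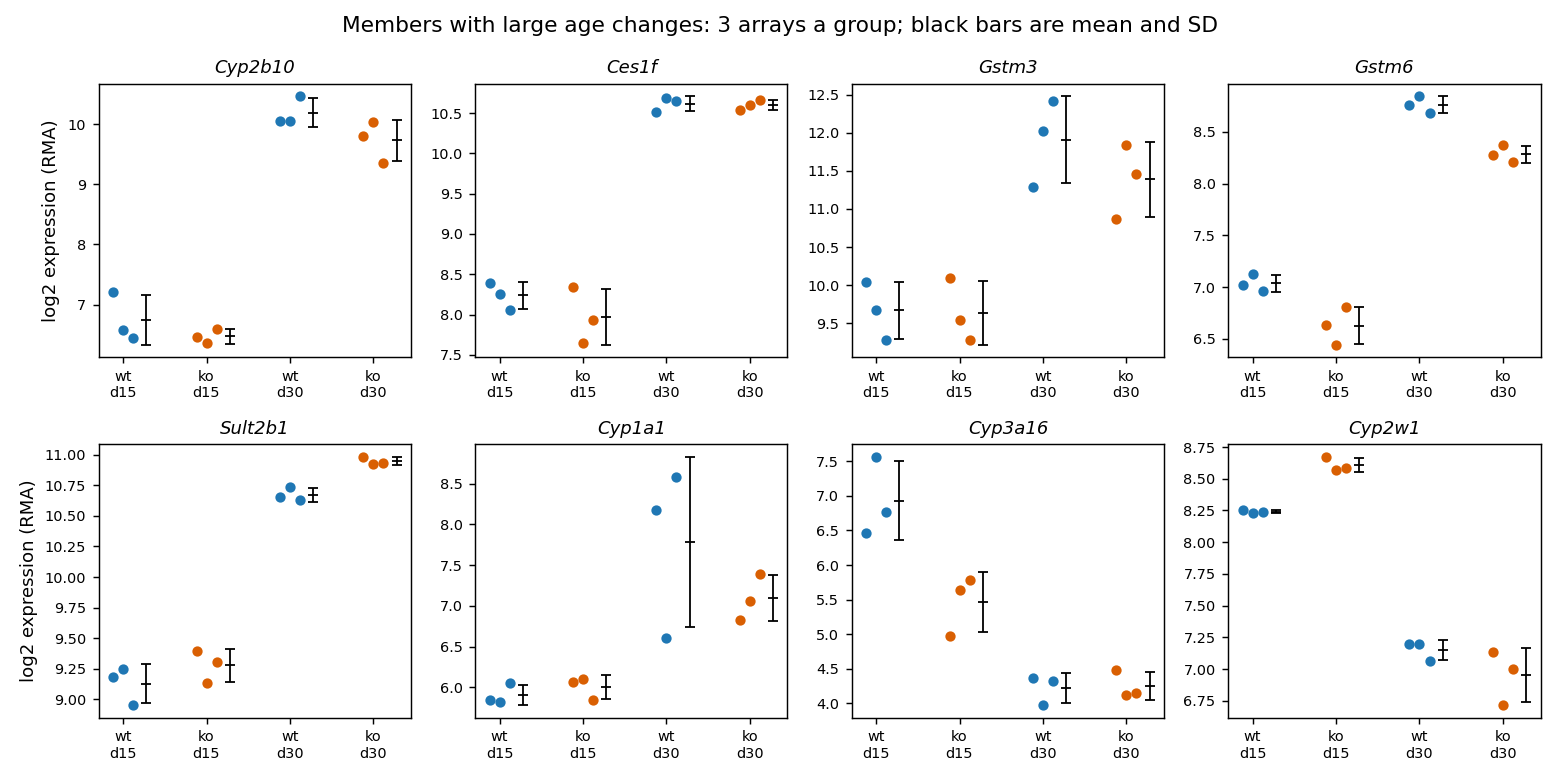
Log2 expression (vertical axis, a separate scale in each panel) on every array for 8 members with large changes between day 15 (d15) and day 30 (d30), in wild type (wt, blue) and knockout (ko, orange), with black bars for mean and SD of 3 arrays. Cyp2b10, Ces1f and Sult2b1 are high on all 6 arrays of day 30, Cyp3a16 and Cyp2w1 are low on them, and Cyp1a1 shows the widest spread in wild type at day 30.

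The genes that supply these enzymes moved with age too. Of 14 listed partner genes, 8 rose and 3 fell in wild type and 8 rose and 4 fell in knockout (78.6% and 85.7% called, beside 29.3% and 31.0% of all genes). Ugdh, which makes UDP-glucuronic acid, rose by 0.95 and 0.62, and Slc35d1, which carries it into the endoplasmic reticulum, by 0.72 and 0.94. Gclc, the catalytic subunit of glutathione synthesis, rose by 0.71 and 0.76, and glutathione reductase, Gsr, by 1.19 and 1.22. The enzymes that make the sulfate donor went apart: Papss2 rose by 1.19 and 2.13 while Papss1 fell by 0.77 and 0.87. Of 13 listed receptors and regulators, 5 rose and 3 fell in wild type and 4 rose and 1 fell in knockout. The called shares were 61.5% and 38.5%, beside 29.3% and 31.0% of all genes. The vitamin D receptor gene Vdr rose by 1.63 and 1.49, and Ahrr, the repressor that the aryl hydrocarbon receptor induces, by 0.65 and 0.70. Ahr itself differed by 0.00 and 0.02, and Nr1i3, the constitutive androstane receptor, by 0.07 and 0.17, none of them called. Nr1i2, the pregnane X receptor, fell by 0.27 in wild type.

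Knockout was compared with wild type at each age. At day 15, 17 members (15.3%) differed, 3 higher and 14 lower in knockout, against 3.83% of all genes (1.81% higher, 2.03% lower). At day 30, 14 members (12.6%) differed, 2 higher and 12 lower, against 1.98% of all genes (1.04% higher, 0.943% lower). The median member difference was -0.04 at day 15 and -0.08 at day 30, beside -0.0097 and -0.0038 over all genes. The 6 members Cyp2c55, Cyp2c65, Gstm1, Gstm6, Gstt1 and Ces2g were lower at both ages, and Ugt2b36 was higher at both. In all, 24 members passed at 1 age or both and 87 at neither. Differences below 0 numbered 66 of 111 at day 15 and 76 at day 30.

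The counts depended on single pools and on measured differences between them. At day 15 the count was 8 without wild type replicate 2 or knockout replicate 2, 9 without knockout replicate 3 and 10 without wild type replicate 1. At day 30 it was 6 without knockout replicate 1 and 9 without wild type replicate 3. At day 15 the smooth muscle means were 10.46 to 10.64 in knockout, below those of wild type (10.74 to 10.84), and with that mean in the model only Sult6b2 kept its call. At day 30 the muscle ranges overlapped (10.02 to 10.19 and 10.04 to 10.08), while Xist was 9.26, 10.67 and 9.53 in wild type and 10.66, 10.33 and 10.81 in knockout. With Xist in the model, a setting chosen after seeing the data, 6 members were called at day 30. These were 5 of the 14 and Cyp1b1, which was not called without it. The 9 lost were Cyp2c65, Cyp2u1, Cyp3a25, Gstm1, Gstm6, Gstm7, Ugt2b35, Ugt2b37 and Ugt2b5. The enterocyte markers were higher in the knockout at that age, at 13.14 to 13.16 against 12.91 to 13.00 per array, with 3 of 9 called higher, none lower and differences from -0.19 to 0.35. Their part in the genotype counts was not tested.

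**Figure D3:**
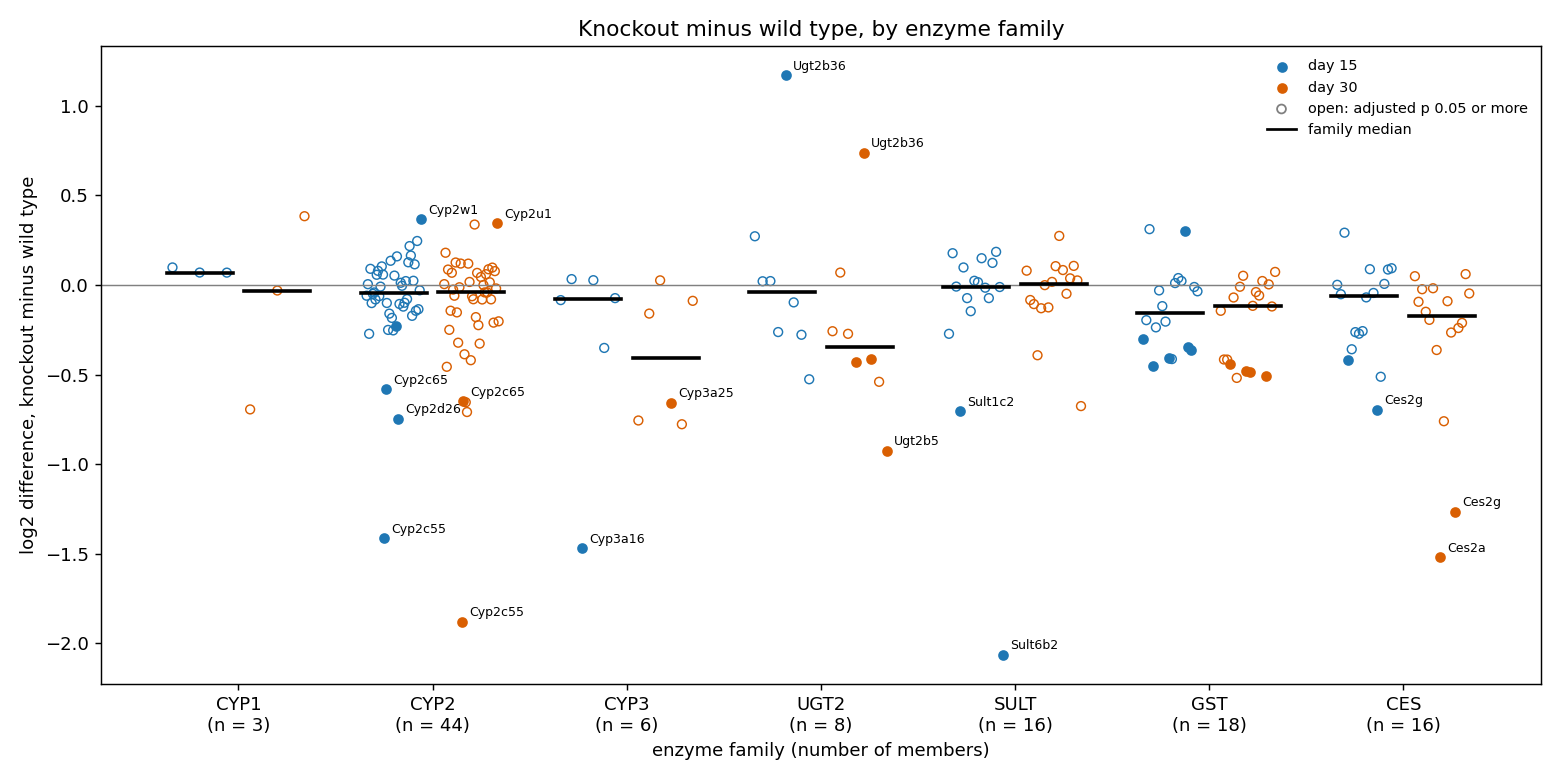
Knockout minus wild type (log2 difference, vertical axis) for each of the 111 members by family, at day 15 (blue) and day 30 (orange), with black bars at family medians and open circles where the limma adjusted p was 0.05 or more. The called members lie mostly below 0, with Ugt2b36 above 0 at both ages (1.17 and 0.74) and Sult6b2 lowest at day 15 (-2.06).

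Among the oxidising enzymes, Cyp2c55 had the largest deficit at day 30. This P450, which turns arachidonic acid into hydroxy and epoxy acids, was at 8.10, 8.54 and 7.37 in wild type and 7.00, 6.24 and 6.54 in knockout at day 15. At day 30 it was at 8.02, 9.17 and 8.41 in wild type and 6.21, 7.01 and 6.75 in knockout. The genotypes did not overlap at either age, although pools of 1 group spread by more than 1 log2 unit in wild type. Cyp2c55 was lower by 2.66-fold at day 15 (-1.41, SE 0.33, limma adjusted p = 0.034) and by 3.68-fold at day 30 (-1.88, SE 0.33, adjusted p = 0.010). The day 15 call was lost without wild type replicate 1 or 2 or knockout replicate 2 or 3 (adjusted p 0.097 to 0.16), and the day 30 call without knockout replicate 1 (adjusted p = 0.056).

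Its neighbour Cyp2c65 was at 11.67, 11.78 and 11.41 in wild type and 11.29, 10.87 and 10.96 in knockout at day 15, and at 12.04, 12.12 and 12.20 against 11.16, 11.69 and 11.56 at day 30. It was lower without overlap at both ages, by 0.58 (limma adjusted p = 0.040) and 0.65 (adjusted p = 0.034). Its day 15 call was lost without wild type replicate 1 or 2 or knockout replicate 2 or 3 (adjusted p 0.11 to 0.18), and its day 30 call without wild type replicate 1, 2 or 3 or knockout replicate 1 or 3 (adjusted p 0.058 to 0.14). Cyp2c66, the next member in that cluster, had differences of -0.10 and -0.39, neither called. Cyp2c67 and Cyp2c68 had differences of -0.65 and -0.71 at day 30 that missed the threshold (adjusted p = 0.051 and 0.075).

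No CYP1 gene was called for genotype (limma, with 0 of 3 at day 15 and 1 of 3 at day 30 at an unadjusted p below 0.05). The other CYP2 calls were each at 1 age. Cyp2d26, a bright member, was at 12.20, 12.14 and 12.08 in wild type and 11.68, 11.18 and 11.34 in knockout at day 15, and at 11.81, 11.71 and 11.87 against 11.46, 11.82 and 11.57 at day 30. It was lower without overlap at day 15 (-0.75, SE 0.12, limma adjusted p = 0.0030), and the ranges overlapped at day 30 (-0.18). Cyp2w1 was higher in knockout at day 15 by 0.37 (adjusted p = 0.038), a call lost whichever of the 6 arrays was left out (adjusted p 0.089 to 0.11). Cyp2u1 was at 7.64, 7.74 and 7.78 in wild type and 8.10, 8.10 and 8.00 in knockout at day 30, higher by 0.35 without overlap, and that call was lost without wild type replicate 1 or knockout replicate 1 or 2 (adjusted p 0.057 to 0.072). The dim pseudogene Cyp2d13 was lower by 0.23 at day 15, a call lost whichever of the 6 arrays was left out (adjusted p 0.059 to 0.2).

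In family CYP3, Cyp3a16 was lower in knockout at day 15 by 1.47 (SE 0.26, limma adjusted p = 0.0067), with the values given above. At day 30, where both genotypes were near the bottom of the scale, the difference was 0.03 (adjusted p = 0.99). The difference between these effects was 1.50 (adjusted p = 0.13) and was not called. Cyp3a25 was lower by 0.66 at day 30 (adjusted p = 0.047) without overlap, and its difference at day 15 was 0.03. The day 30 call was lost without wild type replicate 2 or 3 or knockout replicate 1 or 3 (adjusted p 0.13 to 0.2). Cyp3a11 and Cyp3a44 had day 30 differences of -0.76 and -0.78, which were not called. Knockout replicate 1 was the lowest of its group at day 30 and replicate 2 the highest for Cyp3a11, Cyp3a25, Cyp3a44, Cyp2c55 and Cyp2c65.

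Of the carboxylesterases, 2 were lower at day 15 and 2 at day 30, with medians of -0.06 and -0.17. The called share was 12.5% at each age, beside 3.83% and 1.98% of all genes. The day 30 deficits of Ces2a and Ces2g passed under every alternative run. Ces2g was at 9.998, 9.67 and 9.57 in wild type and 9.29, 8.88 and 8.98 in knockout at day 15, and at 10.27, 10.50 and 10.38 against 9.12, 9.24 and 9.00 at day 30. The genotypes did not overlap at either age, and the 3 knockout values of day 30 lay in the knockout range of day 15. Ces2g was lower by 1.62-fold at day 15 (-0.70, SE 0.12, limma adjusted p = 0.0073) and by 2.40-fold at day 30 (-1.27, adjusted p = 8.9e-05). Ces2a, an intestinal hydrolase of ester drugs and lipid esters, was at 9.19, 9.05 and 8.65 in wild type and 8.95, 8.69 and 8.48 in knockout at day 15, where the ranges overlapped. At day 30 it was at 9.55, 10.05 and 9.81 in wild type and 8.35, 8.48 and 8.03 in knockout, with all knockout arrays more than 1 log2 unit below all wild type arrays. Its difference was -0.26 at day 15 (adjusted p = 0.56) and -1.52 at day 30 (2.86-fold lower, SE 0.17, adjusted p = 0.00031).

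The difference between these 2 effects passed for Ces2a (-1.26, SE 0.24, limma adjusted p = 0.043). That call was lost without wild type day 15 replicate 2 or 3, knockout day 15 replicate 1 or 2, wild type day 30 replicate 2 or 3 or knockout day 30 replicate 1 or 3 (adjusted p 0.068 to 0.11). Ces2b, between them on the chromosome, differed by -0.76 at day 30 and was not called (adjusted p = 0.12), and Ces2e differed by -0.09. Ces1d was lower at day 15 (-0.42), a call lost without wild type replicate 2 or 3 or knockout replicate 1, 2 or 3 (adjusted p 0.059 to 0.11).

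The upstream sequences of Ces2a and Ces2g are shown because these members were lower together at day 30. They are the 250 bases before each start in RefSeq (GRCm38.p6), on the plus strand of chromosome 8, at chr8:104733753-104734002 and chr8:104961468-104961717. They are identical in 146 of 288 aligned columns (50.7%), and capitals mark the longest run they share, of 11 bases.
Ces2a: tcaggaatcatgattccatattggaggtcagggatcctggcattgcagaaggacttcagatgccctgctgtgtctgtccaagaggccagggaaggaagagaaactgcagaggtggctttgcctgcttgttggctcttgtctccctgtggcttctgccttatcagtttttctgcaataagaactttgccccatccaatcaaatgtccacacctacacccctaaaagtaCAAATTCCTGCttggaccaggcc
Ces2g: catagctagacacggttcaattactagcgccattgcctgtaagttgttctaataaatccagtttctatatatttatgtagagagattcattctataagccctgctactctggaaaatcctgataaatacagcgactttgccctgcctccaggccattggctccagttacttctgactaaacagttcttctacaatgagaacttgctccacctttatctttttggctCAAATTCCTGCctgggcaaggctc

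Among UGT2 genes, neighbours differed in opposite directions. Ugt2b36 was at 6.82, 6.63 and 6.52 in wild type and 7.86, 7.82 and 7.81 in knockout at day 15, and at 6.87, 6.79 and 6.92 against 7.60, 7.95 and 7.25 at day 30. All 6 knockout arrays lay above all 6 wild type arrays. It was 2.25-fold higher at day 15 (1.17, SE 0.13, limma adjusted p = 0.00025) and 1.67-fold higher at day 30 (0.74, adjusted p = 0.011). The day 30 call was lost without wild type replicate 2 (adjusted p = 0.051).

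Ugt2b5, the next member on chromosome 5, was at 8.79, 8.79 and 8.72 in wild type and 8.20, 8.13 and 8.38 in knockout at day 15, and at 8.47, 8.21 and 8.67 against 7.45, 7.88 and 7.24 at day 30. The knockout was lower without overlap at both ages, by 0.53 at day 15, which was not called (limma adjusted p = 0.069), and by 0.92 at day 30 (adjusted p = 0.0044). In RefSeq order the cluster runs Ugt2b34, Ugt2b1, Ugt2b35, Ugt2b36, Ugt2b5, Ugt2b37, Ugt2a3 and Ugt2b38, so Ugt2b36 stood between lower genes: Ugt2b35 was lower by 0.43 and the dim Ugt2b37 by 0.41 at day 30. The call of Ugt2b35 was lost without wild type replicate 3 or knockout replicate 1 (adjusted p = 0.055). With Xist in the model the day 30 calls of Ugt2b5 and Ugt2b37 were lost (limma adjusted p = 0.056 for each), as was that of Ugt2b35. Ugt2b34, Ugt2a3 and Ugt2b38 had differences of -0.27, -0.26 and -0.54 there, none called.

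The sequences before Ugt2b36 and Ugt2b5 are shown because the genes are neighbouring members that differed in opposite directions (RefSeq, GRCm38.p6, minus strand, chr5:87092556-87092805 and chr5:87140341-87140590). They are identical in 160 of 270 aligned columns (59.3%). Capitals mark the longest shared run, 24 bases, which lies from -31 to -8 relative to the start of Ugt2b36 and from -28 to -5 relative to that of Ugt2b5.
Ugt2b36: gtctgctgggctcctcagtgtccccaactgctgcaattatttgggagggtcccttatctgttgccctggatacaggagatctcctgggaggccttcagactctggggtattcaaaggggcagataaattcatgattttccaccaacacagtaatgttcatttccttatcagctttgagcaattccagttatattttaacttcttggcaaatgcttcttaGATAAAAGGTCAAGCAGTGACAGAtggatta
Ugt2b5: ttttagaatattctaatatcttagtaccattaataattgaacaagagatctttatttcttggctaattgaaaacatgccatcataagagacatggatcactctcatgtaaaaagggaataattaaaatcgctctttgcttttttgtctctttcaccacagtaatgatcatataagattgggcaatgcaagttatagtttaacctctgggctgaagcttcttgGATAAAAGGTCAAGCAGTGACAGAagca
Whether probes of these features also match neighbouring UGT2 genes was not tested.

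Of the sulfotransferases, Sult6b2 was lower in knockout at day 15 by 4.18-fold (-2.06, SE 0.17, limma adjusted p = 1.8e-05), the largest genotype difference of any member at that age. At day 30 the values again did not overlap, but the difference of -0.68 was not called (adjusted p = 0.066). The difference between the effects was 1.39 (SE 0.24, adjusted p = 0.024). That call was lost without wild type day 15 replicate 1 or 2, knockout day 15 replicate 3, wild type day 30 replicate 1 or 3 or knockout day 30 replicate 1 or 2 (adjusted p 0.05 to 0.085). Sult6b2 and Ces2a were the 2 members (1.80%) called for a difference between genotype effects, against 0.456% of all genes. Sult1c2, a phenol sulfotransferase, was at 9.55, 9.45 and 9.58 in wild type and 8.96, 8.76 and 8.75 in knockout at day 15, lower by 0.70 (adjusted p = 0.0016), and at 9.01, 9.43 and 9.18 against 8.81, 8.94 and 8.69 at day 30. At day 30 its difference of -0.39 was not called. At day 15, 3 of 10 markers of stomach and Brunner's gland were lower in knockout too, and their part in these values was not tested.

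A gene of sulfate donor supply was also lower at day 15. Papss2, which makes the donor, was at 12.65, 12.44 and 12.34 in wild type and 11.49, 11.28 and 11.25 in knockout at day 15, and at 13.65, 13.68 and 13.68 against 13.55, 13.44 and 13.41 at day 30. It was lower at day 15 by 1.14 (limma adjusted p = 7.1e-06) and had a difference of -0.20 at day 30 (adjusted p = 0.38). The difference between these effects was 0.94 (adjusted p = 0.0039). Papss1, the other enzyme of this step, was higher by 0.25 at day 15.

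**Figure D4:**
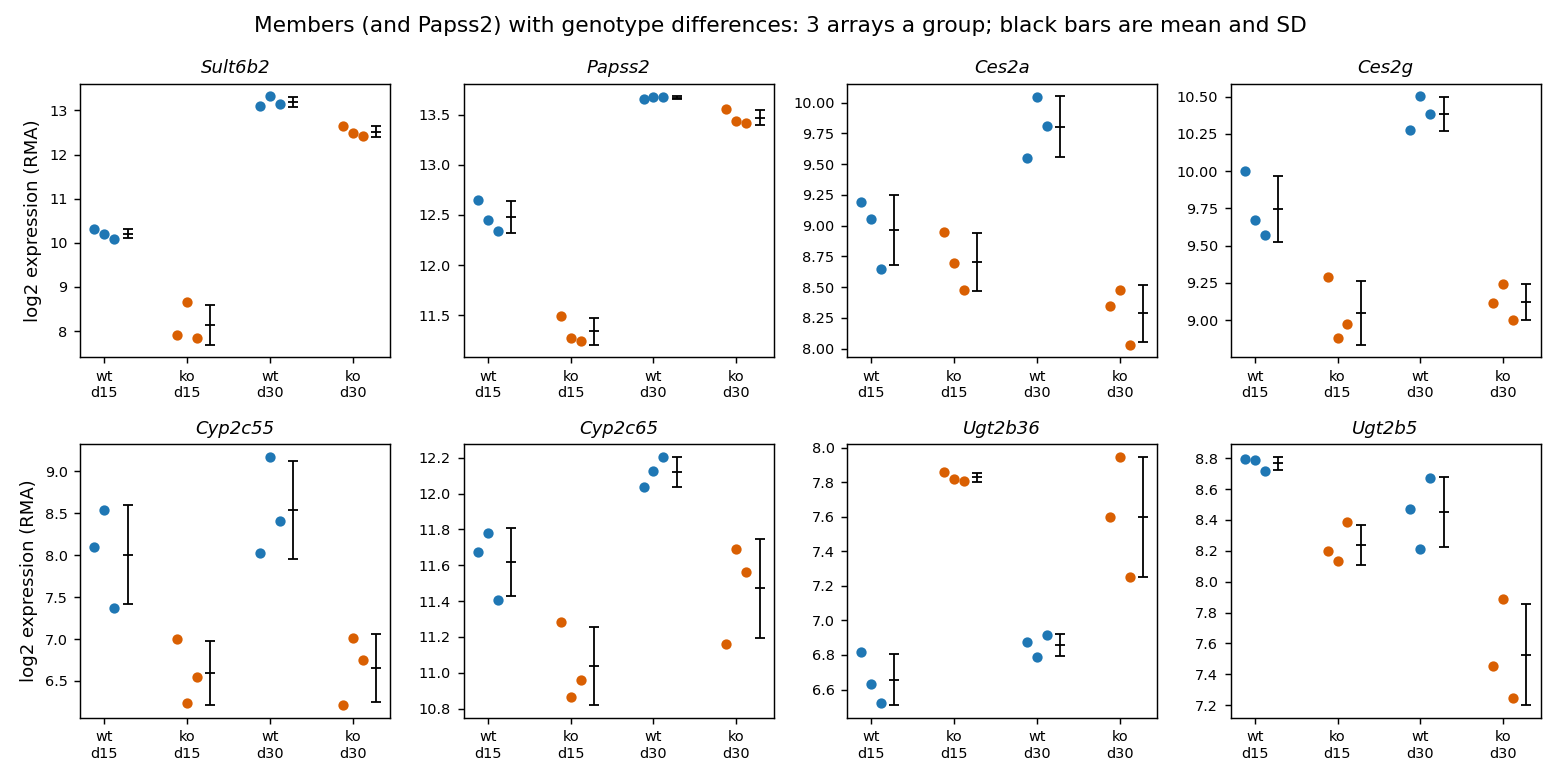
Log2 expression (vertical axis, a separate scale in each panel) on every array for 7 members with genotype differences and for Papss2, in wild type (wt, blue) and knockout (ko, orange) at day 15 (d15) and day 30 (d30), with black bars for mean and SD of 3 arrays. Sult6b2 and Papss2 are lowest in knockout at day 15 and rise in both genotypes, whereas Ces2a and Ces2g were called higher at day 30 in wild type and not in knockout.

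The glutathione S-transferases had many small deficits: 5 of 18 members were lower and 1 higher at day 15, and 4 were lower and none higher at day 30 (0 higher at an unadjusted limma p below 0.05). The called shares were 33.3% and 22.2%, beside 3.83% and 1.98% of all genes. The family's median difference was -0.16 at day 15 and -0.12 at day 30. Gstm6 was lower by 0.41 and 0.48 (limma adjusted p = 0.021 and 0.012), Gstm1 by 0.45 and 0.44, and Gstt1 by 0.35 and 0.51. Of these 6 calls, that of Gstt1 at day 30 (adjusted p = 0.0033) held whichever array was left out. At day 15 the call of Gstm6 was lost without wild type replicate 1 or 2 or knockout replicate 2 (adjusted p 0.054 to 0.093), that of Gstm1 without wild type replicate 1 or 2 or knockout replicate 2 or 3 (adjusted p 0.062 to 0.1) and that of Gstt1 without wild type replicate 1, 2 or 3 or knockout replicate 2 or 3 (adjusted p 0.053 to 0.12). At day 30 the call of Gstm6 was lost without wild type replicate 2 or knockout replicate 1 (adjusted p 0.053 to 0.057) and that of Gstm1 without wild type replicate 2 or 3 or knockout replicate 1 or 3 (adjusted p 0.082 to 0.14). Gstm7 was lower by 0.48 at day 30, a call lost whichever of the 6 arrays was left out (adjusted p 0.054 to 0.14). Gsta3 was lower at day 15 by 0.30, and Gstt2 by 0.36, the latter call being lost whichever of the 6 arrays was left out (adjusted p 0.095 to 0.14). Gstp3 was higher in knockout at day 15 by 0.30 (adjusted p = 0.0061), without overlap, and the difference was 0.02 at day 30.

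Partner genes differed in both directions. Cyb5r3, the reductase of cytochrome b5, which passes electrons to P450 enzymes, was lower in knockout at both ages (-0.77 and -0.59). Gsr was higher at both (0.38 and 0.42). Ephx2, the soluble epoxide hydrolase, and Gclm, the regulatory subunit of glutathione synthesis, were lower at day 30 (-0.31 and -0.31). None of the 13 receptors and regulators was called for genotype at either age by limma (1 of 13 at day 15 and 3 of 13 at day 30 at an unadjusted p below 0.05), and the differences of Ahr, Nr1i2, Nr1i3, Hnf4a and Vdr lay between -0.19 and 0.12.

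The promoters of members were searched on both strands for short motifs. RefSeq (GRCm38.p6) gave 109 promoters for 95 of the members, each of 250 bases before the start. The core that Onecut factors bind, ATTGAT, was found in 12 of them (11.0%) and in 6.72% of all 32851 promoters. It was found in 2 of 25 promoters (8.00%) of members called for genotype, those of Cyp3a16 and Gstm6. The core of the aryl hydrocarbon receptor, GCGTG, was in 15.6% of member promoters and 28.2% of all, with Cyp1a1, Cyp1b1 and Cyp2b10 among those that hold it. The antioxidant response core, TGACNNNGC, was in 2.75% against 10.2%, with Gsta3, Gstm5 and Gstm7 as its holders, and the HNF1 half-site, GTTAAT, in 10.1% against 6.43%. No motif contains another. A match describes the letters of a window only.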

How the data were processed

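Per the submitters' processing notes, the authors made the deposited log2 expression values with RMA in Affymetrix Expression Console version 1.1. The files do not state the log base, and base 2 was assumed because RMA uses it. No source used here gives the build of the probe annotation. Of 35557 features, 21789 carry exactly 1 symbol, and the feature with the highest mean served for each of 19938 genes. Array medians were 7.20 to 7.25, and the number of arrays limits the precision.

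A model of 4 group means was fitted over 12 arrays with limma version 3.58.1 (R version 4.3.3) and eBayes, with 8 residual degrees of freedom, Benjamini-Hochberg adjustment over all genes and a threshold of 0.05. The code was tested on simulated data. Members and gene lists were chosen with earlier results of these data known. Any member may be named, with single-array values for up to 6 called rises and 6 falls per comparison and for members whose genotype effects differed between ages. Replicate numbers were not used to pair the samples in the main model. Of 12 same-number correlations of deviations, 5 exceeded 0.1 (range -0.25 to 0.36). Between the ages in wild type they were 0.29, 0.06 and 0.17, and different numbers gave -0.24 to 0.13. Between genotypes at day 15 they were 0.36, -0.01 and 0.26, and different numbers gave -0.36 to 0.19. In knockout they were 0.04, -0.08 and -0.25, and at day 30 -0.11, 0.12 and -0.24. Whether the numbers mark a shared batch was not tested. Alternatives were eBayes with a trend or robust moderation, array weights, median centring, a filter on dim features, the compared arrays alone, a replicate block, a smooth muscle or Xist covariate, and leaving out each array.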

Additional observations from a re-analysis of the deposited data

Results flagged for a closer look

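For Sult6b2 and Ces2a the effect of the knockout differed between the ages. For Sult6b2 the effect at day 30 minus that at day 15 was 1.39 on the log2 scale (SE 0.24, limma adjusted p = 0.024), with the knockout lower at day 15 by a log2 difference of -2.06. Over the alternatives this value ranged from 1.24 to 1.73 and its adjusted p from 0.00011 to 0.19, and the call was lost under 8 of 21. For Ces2a the value was -1.26 (SE 0.24, limma adjusted p = 0.043), with a difference of -0.26 at day 15 and of -1.52 at day 30. It ranged from -1.39 to -1.10 over the alternatives, with an adjusted p from 0.014 to 0.24, and the call was lost under 10 of 21. Both calls were lost with Xist in the model.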

How the results depend on the processing

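Leaving out each array in turn gave 45 to 53 called members for the age change in wild type, 37 to 47 for that in knockout, 8 to 16 for genotype at day 15, 6 to 16 at day 30 and 0 to 3 for the difference between genotype effects. With each array's muscle marker mean added to the model the counts were 1, 10, 1, 12 and 1. The age changes that turned sign there were in wild type those of Cyp1a1 (-0.89), Cyp2b19 (-0.15), Cyp2c29 (-0.31), Cyp2c67 (0.042), Cyp2u1 (0.020), Gstm5 (0.13), Sult1c2 (0.55), Ugt2b37 (-0.33) and Ugt2b38 (-0.84), and in knockout those of Ces1a (-0.038), Cyp1a1 (-0.96), Cyp2b19 (-0.14), Gstm5 (0.20) and Gstt4 (-0.0035). The cause was not tested. With Xist as a covariate, chosen after seeing the data, the counts were 38, 45, 14, 6 and 0. For age in wild type 37 of the 54 calls were kept. The 17 lost were Ces1b, Ces1d, Ces2b, Cyp1a1, Cyp1b1, Cyp2c29, Cyp2c65, Cyp2c66, Cyp2d26, Cyp2j5, Cyp3a11, Sult1a1, Sult1b1, Sult1c2, Ugt2b35, Ugt2b37 and Ugt2b38. For genotype 13 of 17 calls were kept at day 15 and 5 of 14 at day 30. An intensity trend, the filter on dim features and array weights each gave 4 for that difference. With the replicate block the counts were 53, 46, 14, 12 and 2, all within 1.5 times those reported. Under every alternative, calls were kept by 1 of 54 members (Gstm6) for age in wild type, 9 of 45 in knockout, 1 of 17 (Sult6b2) for genotype at day 15, 3 of 14 (Ces2a, Ces2g and Gstt1) at day 30 and 0 of 2 for the difference. Signal near background limits the 53 dim members.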
